A study of Mus musculus with 20 samples.

Results

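The genes described here encode the proteins of the cytosolic ribosome, chosen by symbol (Rpl, Rps or Rplp followed by a number, with at most 1 letter and 1 digit after it) and by an FPKM that averaged 1 or more across a cell type's 10 libraries. Of 24315 genes in each table, 83 carried such a symbol and 79 met the minimum in LSK, 47 of the large and 32 of the small subunit, and 79 with the same split met it in MEP. The 4 genes below the minimum in both cell types were Rpl10l, listed at 0 in all libraries, Rpl28, Rpl39l and Rpl3l. Just outside the minimum lay Rpl3l, with a mean of 0.939 FPKM in LSK and 0.879 in MEP, and just inside it lay Rps13, with 1.11 in LSK, and Rps12, with 1.425 in MEP. Rpsa, Fau, Gnb2l1 and Rpl36al, which also encode ribosomal or ribosome-bound proteins, are not matched by the symbol rule and were kept apart.

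PolyA RNA of sorted bone marrow cells of C57BL/6 mice was sequenced in 4 genotypes. LSK cells (Lin-Sca1+Kit+) hold the hematopoietic stem cells and early progenitors, and MEP are the progenitors of erythrocytes and megakaryocytes. Each cell type had 3 WT, 3 Dnmt3a-/-, 2 Bcor-/- and 2 Bcor-/-Dnmt3a-/- libraries, and LSK and MEP came from the same mice. Both genes were conditional alleles deleted by Mx1-Cre, which the interferon response to pIpC switches on in blood-forming and other cells. The Bcor allele loses exons 8 to 10, which the study describes as leaving an unstable transcript. By RT-PCR the study did not detect Bcor mRNA in Bcor-/- LSK, and it reports loss of Bcor protein in lineage-negative marrow cells. It describes Dnmt3a deletion by this Cre as partial in the single mutant and as complete in leukemic double mutants. WT mice carried neither deletion. The label of Bcor-/- replicate 1 names more than 1 mouse, the labels give neither ages nor a disease stage, and the study describes the sequenced Bcor-/-Dnmt3a-/- mice as leukemic, with acute erythroid leukemia.

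A ribosome is built from a small subunit, which decodes the messenger RNA, and a large subunit, which joins the amino acids, and each protein is needed in about 1 copy per ribosome apart from those of the stalk. Ribosomal protein messenger RNAs are among the most abundant of the cell and typically begin with a terminal oligopyrimidine (TOP) tract, through which mTOR and LARP1 set how strongly they are translated. Red cell precursors depend strongly on ribosome supply, since loss of 1 copy of many of these genes causes Diamond-Blackfan anemia, in which erythroid progenitors fail.

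The sequence around the transcription start is shown for 8 genes that were called lower in Bcor-/-Dnmt3a-/- cells, because the start is where a TOP tract lies. Of 12 genes called lower whose outermost RefSeq start was read here, 5 had a run of C and T as defined next and 7 had none, and the lines show all 5 of the former and 3 of the latter, so they do not give the frequency of the run. Each line gives 15 bases before and 15 bases from the annotated RefSeq start (GRCm38.p6), 5′ to 3′, with capitals marking a run of at least 8 C or T that touches the start or the 3 bases on either side of it.
Rpl15: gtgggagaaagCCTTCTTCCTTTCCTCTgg
Rpl27a: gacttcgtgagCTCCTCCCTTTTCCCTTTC
Rps6: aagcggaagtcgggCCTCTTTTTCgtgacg
Rpl22l1: gtgcggcgcaagcccgTTCTCTTCCCacgg
Rpl14: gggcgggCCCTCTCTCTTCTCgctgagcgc
Rpl26: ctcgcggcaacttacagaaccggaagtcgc
Rpl31: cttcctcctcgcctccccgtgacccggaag
Rpl36a: gtgcacccaggcaccgcctataaacttccg
Rpl15 lies at chr14:18270972-18271001 on the minus strand, Rpl27a at chr7:109519180-109519209 on the plus strand, Rps6 at chr4:86857353-86857382 on the minus strand and Rpl22l1 at chr3:28805493-28805522 on the plus strand. Rpl14 lies at chr9:120571502-120571531 on the plus strand, Rpl26 at chr11:68901551-68901580 on the plus strand, Rpl31 at chr1:39367836-39367865 on the plus strand and Rpl36a at chrX:134585639-134585668 on the plus strand. The run was 17 bases long in Rpl15, 20 in Rpl27a, of which 19 bases are within the line, 10 in Rps6, 10 in Rpl22l1 and 14 in Rpl14. In Rpl26, Rpl31 and Rpl36a no run of 8 bases touched the annotated start. RefSeq starts were found for 58 of the 79 members, 69 starts in all, and 30.4% of these had such a run, compared with 7.89% of 32851 starts of all genes. The letters CTTCCG, searched on both strands over 250 bases before to 50 bases after the start, were found at 62.3% of the members' starts and at 16.9% of all starts. CTTCCG can overlap a run of C and T in its first bases. These are counts of letters at annotated starts, which may differ from the starts used in these cells.

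The deposited FPKM of the members spanned a wide range, from the large subunit gene Rpl32 with 3310.0 ± 129.7 FPKM (SD, n = 3) in WT LSK and 3472 ± 347 FPKM (SD, n = 3) in WT MEP, down to Rps13 with 0, 2.10 and 0 FPKM in the WT libraries of LSK and 1.04 ± 0.338 FPKM (SD, n = 3) in WT MEP. Rps9 was the highest gene of the small subunit, with 2594 ± 102 FPKM (SD, n = 3) in WT LSK and 2737 ± 282 FPKM (SD, n = 3) in WT MEP. The lowest of the large subunit was Rpl24 in LSK, with 0.838 ± 0.367 FPKM (SD, n = 3), and Rpl10 in MEP, with 2.02 ± 0.558 FPKM (SD, n = 3). Of the 79 members, 53 had a mean of at least 50 FPKM and 26 a lower one in each cell type. Proteins that enter the ribosome in equal numbers thus differed widely in the deposited level.

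The low values went loosely with sequence shared with pseudogenes. Ribosomal protein genes have many processed pseudogenes, copies of the messenger RNA inserted elsewhere in the genome, and a read that fits several places may be split or dropped in counting. How such reads were treated is not given in the sources used here. In the GENCODE M21 annotation, the share of a gene's 50-base stretches (50-mers of its protein-coding transcripts) that also occur in an annotated pseudogene reached 84.56% for Rps6, over the 78 members with a protein-coding transcript. The 9 members with under 10% shared had WT means of 52.3 to 2402 FPKM in LSK and 66.1 to 3049 FPKM in MEP. Members with a WT mean under 10 FPKM numbered 15 in LSK and 12 in MEP, with median shares of 44.1% and 43.4%, while those of at least 1000 FPKM had a median share of 16.4% in both cell types. Between these ends the share was not graded in LSK. Members of 10 to 100 FPKM had a median share of 24.3% in LSK and 31.9% in MEP, while those of at least 100 FPKM had 27.9% in both. Across the 78 genes the correlation of log2 WT FPKM with the share was r = -0.345 (rho = -0.378) in LSK and r = -0.333 (rho = -0.378) in MEP, as a description over genes of the same libraries. Rps4x and Rps3a1, with 72.25% and 71.01% shared, still had WT means of 1631 and 594 FPKM in LSK, so a high share did not always go with a low level.

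**Figure D1:**
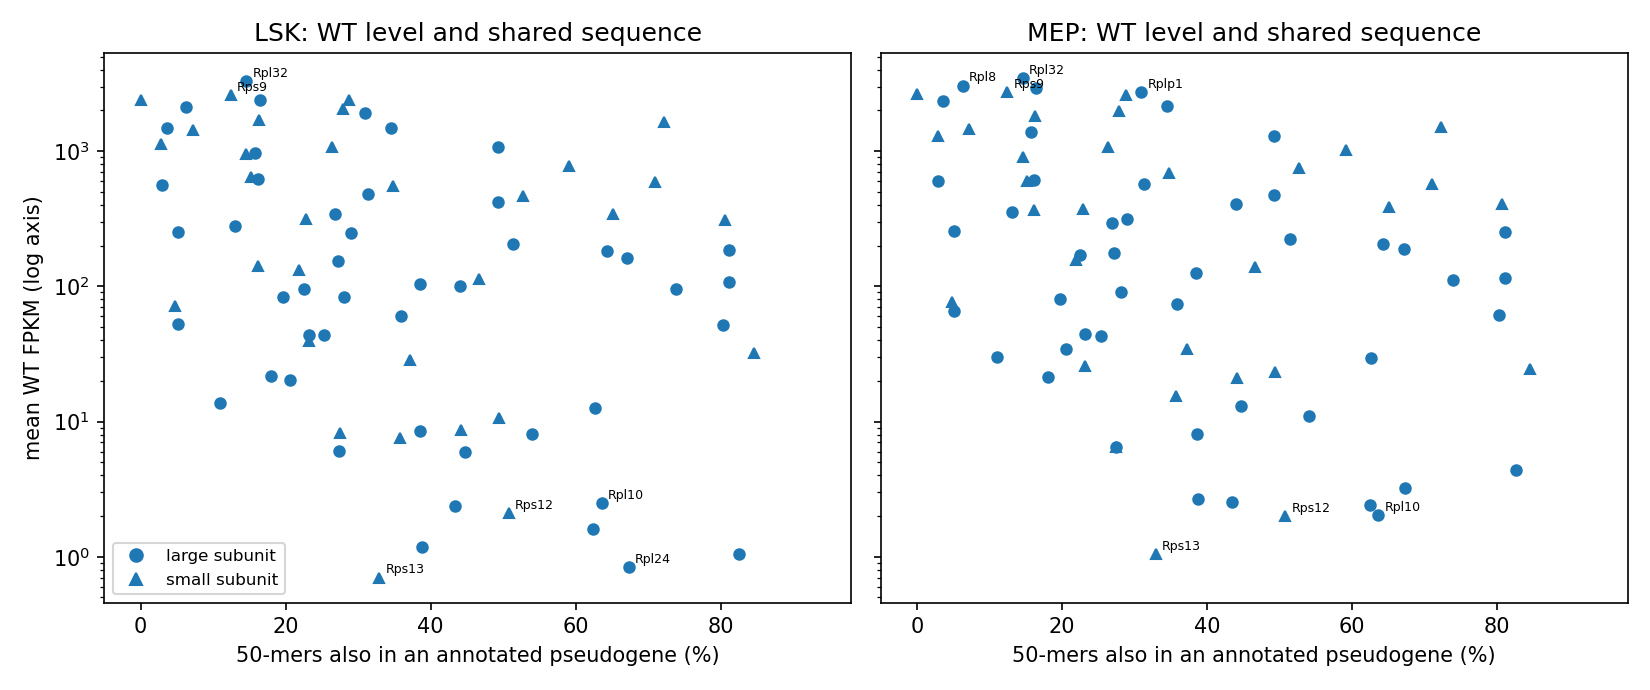
Mean WT FPKM on a log axis (n = 3 libraries) against the percent of 50-mers that also occur in an annotated pseudogene, for 78 members in LSK (left) and MEP (right), with circles for the large and triangles for the small subunit. Every member under 10% shared lies at or above 52.3 FPKM in LSK and 66.1 FPKM in MEP, while the members under 10 FPKM lie farther to the right.

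The libraries of the double mutant stood apart from the rest. Replicates of WT, Dnmt3a-/- and Bcor-/- correlated at r of 0.9712 or more over all tested genes (log2 of FPKM + 1), whereas the 2 Bcor-/-Dnmt3a-/- libraries correlated at 0.8486 in LSK and 0.8152 in MEP. Over the members alone the 2 double mutant libraries correlated at 0.9873 and 0.9887. The sorted double mutant cells also differed in the markers of the gates: in LSK Kit had 47.7 and 19.4 FPKM compared with 148 to 174 in WT, Cd34 5.87 and 37.3 compared with 548 to 650, and Ly6a, which encodes Sca1, 63.5 and 220.2 compared with 59.8 to 70.7. In MEP Kit had 38.1 and 20.2 FPKM compared with 76.98 to 83.5 in WT, and Gata1 71.4 and 239 compared with 170.2 to 225. The gene-level FPKM of the deleted genes, which does not separate exons, did not follow the labels throughout. Bcor had 24.0 and 37.5 FPKM in double mutant LSK compared with 29.6 to 32.4 in WT, and 19.6 and 26.7 in double mutant MEP compared with 21.4 to 26.9. Dnmt3a had 10.4 and 10.9 FPKM in double mutant LSK compared with 16.1 to 19.9 in WT, but 6.85 and 3.435 in double mutant MEP compared with 5.49 to 6.64, so replicate 1 was above every WT library there. In the single mutants Bcor had 19.5 and 22.4 FPKM in Bcor-/- MEP, the latter within the WT range, and Dnmt3a had 16.9, 14.03 and 11.3 in Dnmt3a-/- LSK, the first within the WT range. The other single mutant values lay below every WT library. They were 22.36 and 23.16 FPKM for Bcor in Bcor-/- LSK and 5.40, 2.97 and 2.56 for Dnmt3a in Dnmt3a-/- MEP. The files hold no read counts and the absolute depth is unknown. From the steps between low FPKM values, depth relative to WT replicate 1 was estimated at 0.789 to 1.32 in LSK libraries, while MEP libraries ranged from 1 to 1.61.

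Before single genes were compared, the level of the whole group was described in each library as the median log2 ratio of its members to the WT mean. In MEP both Bcor-/-Dnmt3a-/- libraries lay lowest, at -0.37 and -0.54, below the WT libraries at -0.01, 0.16 and -0.16, the Dnmt3a-/- libraries at -0.05, 0.09 and 0.03 and the Bcor-/- libraries at -0.12 and -0.09. The same ratio over all tested genes lay between -0.02 and 0.01 in every MEP library. The spread among WT was itself broad, since 67 of 79 members were above the WT mean in WT replicate 2 and 71 below it in WT replicate 3. Of the summed FPKM of all genes, members made up 10.4 to 11.5% in WT MEP, 8.86% in Bcor-/-Dnmt3a-/- replicate 1 and 5.55% in replicate 2. In replicate 2 the globin genes took 13.6% of the sum, and without them the members still made up 6.43%.

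In LSK the 2 double mutant libraries lay on opposite sides of WT. The median log2 ratio was -0.19 in Bcor-/-Dnmt3a-/- replicate 1, with 59 of 79 members below the WT mean, and 0.20 in replicate 2, with 57 above it. WT lay at 0.01, -0.01 and 0.01, Dnmt3a-/- at -0.18, -0.10 and 0.01, and Bcor-/- at 0.10 and 0.06. The value of replicate 2 turned negative under 3 of the 4 other scalings, at -0.17 with quantile normalization, -0.08 with each library scaled to the same sum, as in TPM, and -0.02 when globin genes were left out of that sum, so no direction of the group can be given in LSK. Within each double mutant library the subunits had the same sign: the medians of the large and the small subunit in replicate 1 were -0.08 and -0.23 and those of replicate 2 were 0.14 and 0.22. In MEP they were -0.36 and -0.38 in replicate 1 and -0.50 and -0.57 in replicate 2.

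**Figure D2:**
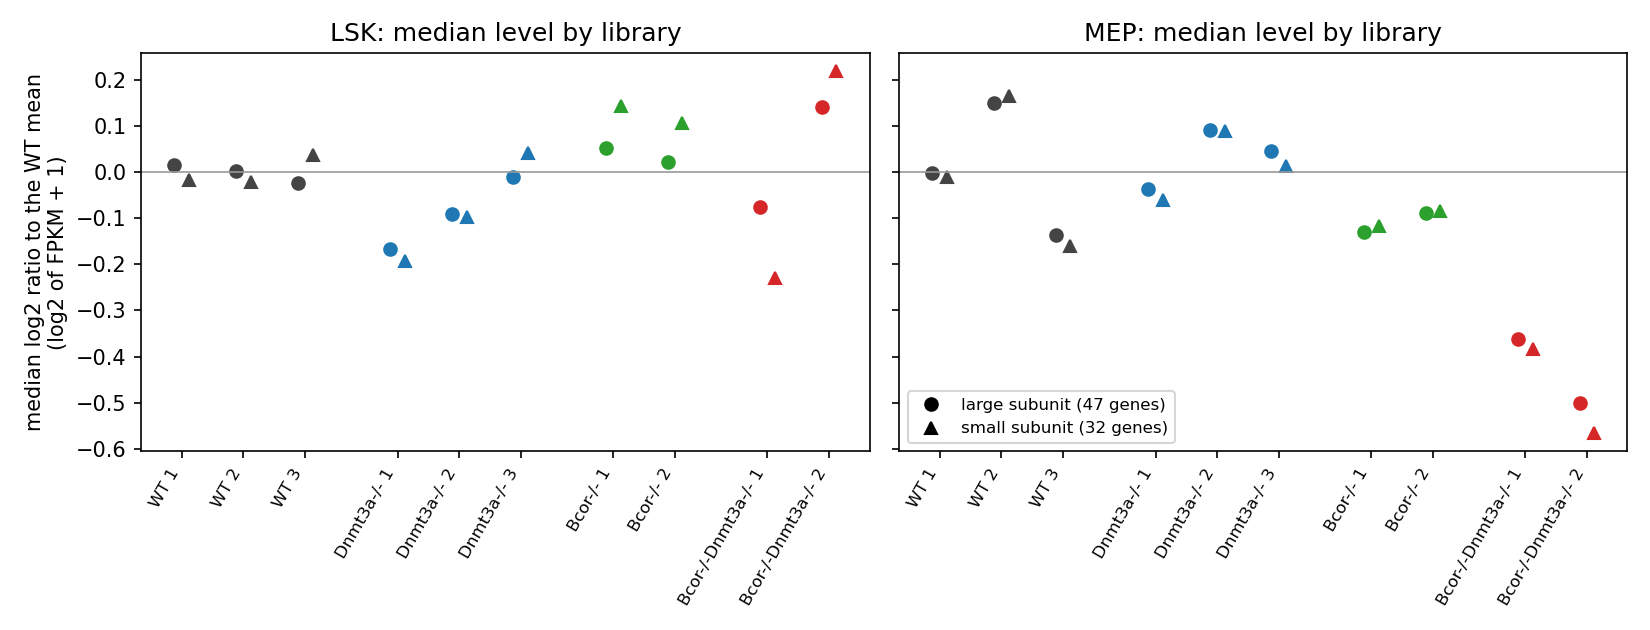
Median log2 ratio to the WT mean (log2 of FPKM + 1) of the 47 large subunit genes (circles) and the 32 small subunit genes (triangles) in every library of LSK (left) and MEP (right). In MEP both Bcor-/-Dnmt3a-/- libraries lie below all other libraries, while in LSK they lie on opposite sides of 0.

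Next, Bcor-/-Dnmt3a-/- MEP were compared with WT MEP. Genes were called at an unadjusted p under 0.05 in limma's test and a fold change above 1.5, the study's thresholds, and Benjamini-Hochberg adjusted p-values over all tested genes are given beside. At these thresholds the study reported far fewer genes in both cell types than were called here, and in LSK its genes were mostly lower. Its legend for LSK states 3 mice for each genotype. Of the 79 members 17 were called lower (21.5%), 11 of the large and 6 of the small subunit, compared with 12.4% of all 10933 tested genes. A further 1 was called higher, compared with 18.5% of all genes. The log2 fold change was below 0 for 76 of 79 members, with a median of -0.49, compared with 0.02 over all tested genes. At an adjusted p under 0.05 with no fold threshold, 37 members were lower (46.8%), compared with 17% of all genes, and the decrease was mostly smaller than the fold threshold. Both double mutant libraries were below every WT library for 46 of 79 members (58.2%), 28 of the large and 18 of the small subunit, compared with 25.8% of all genes. Samples of one genotype are different mice as far as the labels tell, and with 2 libraries against 3 the smallest two-sided p of an exact permutation test is 0.1.

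The median of the members stayed below 0 under all 4 scalings, between -0.61 and -0.72, where the median of all genes moved to between -0.09 and -0.19, and 42 to 49 members were then called lower, beside 17.4 to 21.7% of all genes. With 1 variance per genotype, 9 members were called lower (7.46% of all genes) and none passed an adjusted p under 0.05. With only WT and the double mutant in the fit 16 were called lower (10.7% of all genes) and 3 passed the adjusted p. The count was 32 without WT replicate 3 (13.4% of all genes) and 12 without WT replicate 2 (10.8%). It was 32 without Bcor-/-Dnmt3a-/- replicate 1 (18.3% of all genes) and 21 without replicate 2 (14%), where the remaining library is assumed to vary like those of the other genotypes. None of the 9 members with under 10% of shared 50-mers was called, though 3 of the 9 were lower at an adjusted p under 0.05 with no fold threshold, beside 17% of all genes. All 9 had a log2 fold change below 0 and their median was -0.40.

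Markers of other cell types moved with the double mutant in MEP. The summed FPKM of 22 erythroid markers was 5734 to 8358 in WT and 7242 and 108000 in Bcor-/-Dnmt3a-/- replicates 1 and 2, with 7 of 21 tested markers called higher and 1 lower, and Hbb-b1 listed at 0 in 1 of these libraries. The sum of 10 granulocyte markers was 320.1 to 787 in WT and 6976 and 15910 in the double mutant, with 6 called higher. B cell markers (8 genes) summed to 30.5 to 174 in WT and to 2809 and 146 in the double mutant, and macrophage markers (7 genes) to 6.51 to 11.1 and to 792 and 36.0, with 6 called higher in each list. Of 6 tested T and NK cell markers 5 were called higher, and their sum was 39.3 to 72.9 in WT and 135 and 174 in the double mutant. Of 9 tested megakaryocyte markers 4 were called lower, and their sum was 103 to 372 in WT and 27.9 and 82.4 in the double mutant. Their part in the decrease of the ribosomal protein genes was not tested, and in sorted bulk cells fewer cells of a type and less RNA per cell cannot be told apart.

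The largest decrease was that of Rpl26, a protein near the exit of the large subunit's peptide tunnel that is also known to bind p53 messenger RNA. Rpl26 had 387, 439 and 386 FPKM in WT MEP, and Dnmt3a-/- MEP had 422, 411 and 528, Bcor-/- MEP 281 and 362 and Bcor-/-Dnmt3a-/- MEP 184 and 125, so the double mutant libraries were at 45.6% and 31.0% of the WT mean and below all others. Its log2 fold change was -1.40 ± 0.19 (SE), adjusted p = 0.0015. Rpl31, another protein at the tunnel exit, had 33.2, 39.2 and 31.5 FPKM in WT against 19.2 and 12.5 in the double mutant, a log2 fold change of -1.10 ± 0.20 (SE), adjusted p = 0.00414. Rpl30, of the intersubunit face, had 177, 177 and 161 FPKM in WT against 109 and 76.9 in the double mutant, with a log2 fold change of -0.90 ± 0.16 (SE), adjusted p = 0.00463. For these 3 genes no double mutant library reached the lowest WT library.

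In the small subunit Rps23, Rps27a and Rps12 fell most. Rps23, a protein of the decoding center, had 26.0, 19.4 and 17.0 FPKM in WT MEP against 7.87 and 9.28 in the double mutant (log2 fold change -1.17 ± 0.17 (SE), adjusted p = 0.00177). Rps27a, which is made as a fusion with ubiquitin, had 23.4, 26.0 and 20.6 FPKM in WT against 9.64 and 11.6 in the double mutant (log2 fold change -1.07 ± 0.14 (SE), adjusted p = 0.00122). Both genes were at 37.8% to 49.6% of the WT mean in the 2 libraries, and the groups did not overlap. Rps12 was called at low values only, with 1.80, 2.90 and 1.29 FPKM in WT against 1.02 and 0 in the double mutant, where it is listed at 0 in replicate 2, and its adjusted p was 0.0852.

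The other genes called lower in MEP included Rpl27a, Rpl36a, Rpl13, Rpl22l1, Rpl14, Rpl3, Rpl15 and Rpl37a of the large subunit and Rps7 and Rps27l of the small subunit, with log2 fold changes from -0.87 for Rpl27a to -0.59 for Rps27l. For Rpl27a the 2 double mutant libraries differed widely, at 59.3 and 26.4 FPKM compared with 70.9, 76.6 and 72.9 in WT. Rpl3, which lies at the peptidyl transferase center, had 109.6 and 121 FPKM in the double mutant and 207, 207 and 151 in WT. Among the most abundant genes none was called, but those with a WT mean of at least 1000 FPKM numbered 18, all had a log2 fold change below 0, and 10 of them passed an adjusted p under 0.05. The single gene called higher was Rps13, at 1.01, 1.40 and 0.723 FPKM in WT against 2.60 and 3.19 in the double mutant (log2 fold change 0.94 ± 0.22 (SE), adjusted p = 0.0133), values close to the minimum level.

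**Figure D3:**
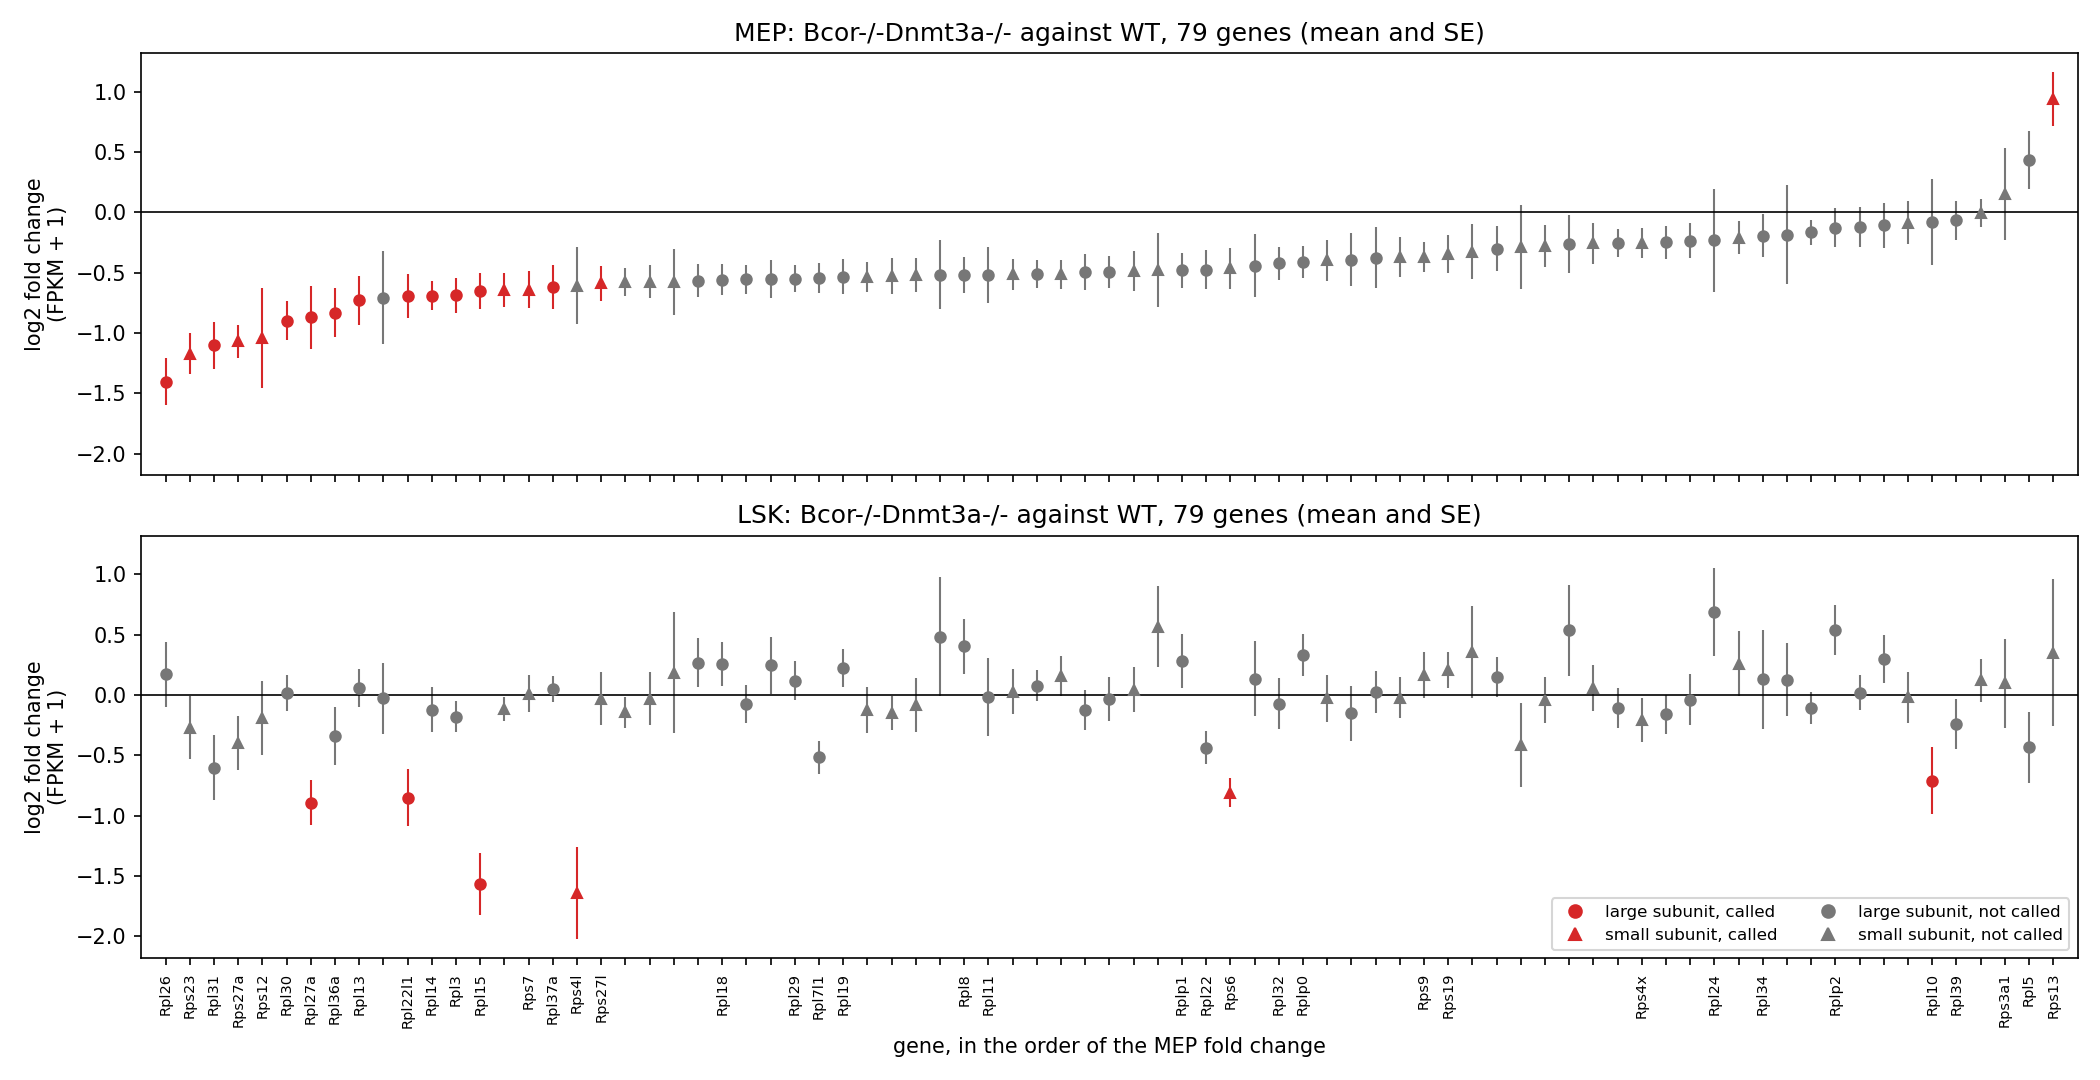
Log2 fold change of FPKM + 1 in Bcor-/-Dnmt3a-/- against WT, with its standard error, for the 79 members in MEP (top) and LSK (bottom) in the order of the MEP values, with names on the axis for members named in the text, circles for the large and triangles for the small subunit and red for called genes. In MEP 76 of 79 points lie below 0 around a median of -0.49, while in LSK the points scatter around 0 with 6 called genes below.

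Groups of members with a known role were then taken apart. The stalk proteins Rplp0, Rplp1 and Rplp2 recruit the translation factors to the large subunit. None of the 3 was called in MEP, but Rplp0 (2098, 2413 and 1914 FPKM in WT, 1532 and 1675 in the double mutant) and Rplp1 (2781, 2869 and 2512 against 1761 and 2156) passed an adjusted p under 0.05, with log2 fold changes of -0.41 and -0.48. In LSK the 3 stalk genes had log2 fold changes of 0.28 to 0.54, and none was called.

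Rpl5 and Rpl11 form with the 5S ribosomal RNA the particle that inhibits Mdm2 and so stabilizes p53 when ribosome assembly fails. Neither was called against WT in any mutant. Rpl5 had 10.3, 6.09 and 7.89 FPKM in WT MEP against 13.6 and 8.99 in the double mutant, and 12.2, 6.33 and 7.22 in WT LSK against 7.83 and 4.33 in the double mutant. Rpl11 had 10.8, 12.2 and 9.83 FPKM in WT MEP against 7.57 and 7.09 in the double mutant, a log2 fold change of -0.52 ± 0.23 (SE), unadjusted p = 0.0545, adjusted p = 0.118. Rpl5 was thus one of 3 members with a log2 fold change above 0 in MEP, while Rpl11 lay below WT in both libraries.

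Of 20 members known from Diamond-Blackfan anemia, 5 were called lower in Bcor-/-Dnmt3a-/- MEP, among them Rps7, Rpl15, Rpl26 and Rpl31, and none higher. This is 25% of the list, close to the 21.5% of all members and above the 12.4% of all genes. Their median log2 fold change was -0.49, the value of all members, and 19 of 20 were below 0. Rps19, the gene most often affected in the disease, had 595, 698 and 514 FPKM in WT MEP against 540.0 and 409 in the double mutant, with overlapping groups and a log2 fold change of -0.35 ± 0.16 (SE), unadjusted p = 0.0552, adjusted p = 0.119. In LSK 1 of the 20 (5%), Rpl15, was called lower, beside 13.3% of all genes.

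Close paralogs of core proteins were compared with their parent genes. Of 4 tested paralogs, Rpl22l1, Rps27l, Rpl7l1 and Rps4l, 2 were called lower in MEP and 2 in LSK (12.4% and 13.3% of all genes). Rps4l is the member for which the GENCODE M21 annotation holds no protein-coding transcript. Rpl22l1 was lower in both, with 206, 210.1 and 203 FPKM in WT LSK against 94.2 and 138 in the double mutant (log2 fold change -0.85 ± 0.23 (SE), adjusted p = 0.0245), and 232, 219 and 222 in WT MEP against 167 and 115 in the double mutant (log2 fold change -0.69 ± 0.18 (SE), adjusted p = 0.0223). Its parent Rpl22 had 258, 243 and 257 FPKM in WT LSK against 177 and 197 in the double mutant, a log2 fold change of -0.44 ± 0.14 (SE), adjusted p = 0.0406. Rpl7l1 was at 48.4, 50.003 and 58.5 FPKM in WT LSK against 40.1 and 32.6 in the double mutant (log2 fold change -0.52 ± 0.14 (SE), adjusted p = 0.0207). Of the 7 parent genes 1 was called lower in LSK (Rpl10) and 1 in MEP (Rpl3). The 4 members on the X chromosome, Rps4x, Rpl10, Rpl39 and Rpl36a, had log2 fold changes below 0 in both cell types, and Rpl10 was called in LSK and Rpl36a in MEP.

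In LSK the comparison of Bcor-/-Dnmt3a-/- with WT gave few calls among these genes. No member was called higher, compared with 15% of all 11952 tested genes, and 6 were called lower (7.59%), compared with 13.3%. At an adjusted p under 0.05 the count was 7 lower (8.86%), compared with 14.2%. The median log2 fold change was -0.02, compared with 0.02 over all tested genes, and 41 of 79 were below 0. Both double mutant libraries were below every WT library for 13 members (16.5%), compared with 24.1% of all genes. Each of these shares was below that of all genes. With 1 variance per genotype 4 members were called lower (9.71% of all genes) and 1 passed the adjusted p. With only WT and the double mutant in the fit 5 were called lower (11.7% of all genes) and 4 passed the adjusted p. Without Bcor-/-Dnmt3a-/- replicate 1 the calls were 6 higher and 8 lower, and without replicate 2 they were 1 higher and 6 lower, beside 20.6 and 19% of all genes in the former case and 16.7 and 15.5% in the latter, again with the lone library assumed to vary like the others. Under the 4 other scalings the members' median was between -0.11 and -0.25 and that of all genes between -0.07 and -0.17, with 8 to 10 members called lower beside 16 to 20.1% of all genes. In these libraries the summed FPKM of the erythroid markers was 8043 and 25580 compared with 552 to 728 in WT, with 21 of 21 called higher, that of the B cell markers 3440 and 1276 compared with 42.4 to 101, and that of 11 stem and progenitor markers 403 and 476.5 compared with 1373 to 1597, with 8 of 11 called lower. T and NK cell markers had 7 of 8 called higher, though their sum, 150.2 and 445 compared with 234.7 to 262, moved either way, and 6 of 9 tested megakaryocyte markers were called lower, with a sum of 20.3 and 64.0 compared with 174.5 to 219. Macrophage markers summed to 1514 and 121.5 compared with 62.8 to 334, with 1 of 7 called higher and a median log2 fold change of 1.25. Granulocyte markers summed to 8577 and 8662, within the 3543 to 13550 of WT, with 2 of 10 called higher. The part of all these markers in these values was not tested.

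Rpl15 and Rps6 had the clearest decrease in LSK. Rpl15, of the large subunit, had 44.5, 41.3 and 44.7 FPKM in WT LSK, and Dnmt3a-/- LSK had 40.6, 44.1 and 53.3, Bcor-/- LSK 40.1 and 30.1 and Bcor-/-Dnmt3a-/- LSK 19.96 and 9.79, or 45.9% and 22.5% of the WT mean in the last (log2 fold change -1.56 ± 0.26 (SE), adjusted p = 0.00204). Rps6, the small subunit protein that is phosphorylated by S6 kinase below mTOR, had 33.4, 30.9 and 32.3 FPKM in WT, and Dnmt3a-/- LSK had 32.3, 40.2 and 39.2, Bcor-/- LSK 23.0 and 22.8 and double mutant LSK 18.8 and 17.0 (log2 fold change -0.81 ± 0.12 (SE), adjusted p = 0.00122). All WT values of both genes were above all double mutant values. Rps6 also had the highest share of 50-mers found in pseudogenes, and the starts of both genes carry a pyrimidine run in the lines above.

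The other genes called lower in LSK were Rps4l, Rpl27a, Rpl22l1 and Rpl10. Rps4l had 9.68, 11.9 and 12.0 FPKM in WT against 1.32 and 5.53 in the double mutant (log2 fold change -1.64 ± 0.38 (SE), adjusted p = 0.0117). Rpl27a was at 63.9, 59.3 and 58.3 FPKM in WT against 38.0 and 27.1 in the double mutant (log2 fold change -0.89 ± 0.19 (SE), adjusted p = 0.00755). Rpl10, at 2.45, 3.48 and 1.56 FPKM in WT against 1.09 and 1.08 in the double mutant, missed the adjusted threshold with an adjusted p of 0.0879. In none of these genes did the groups overlap.

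**Figure D4:**
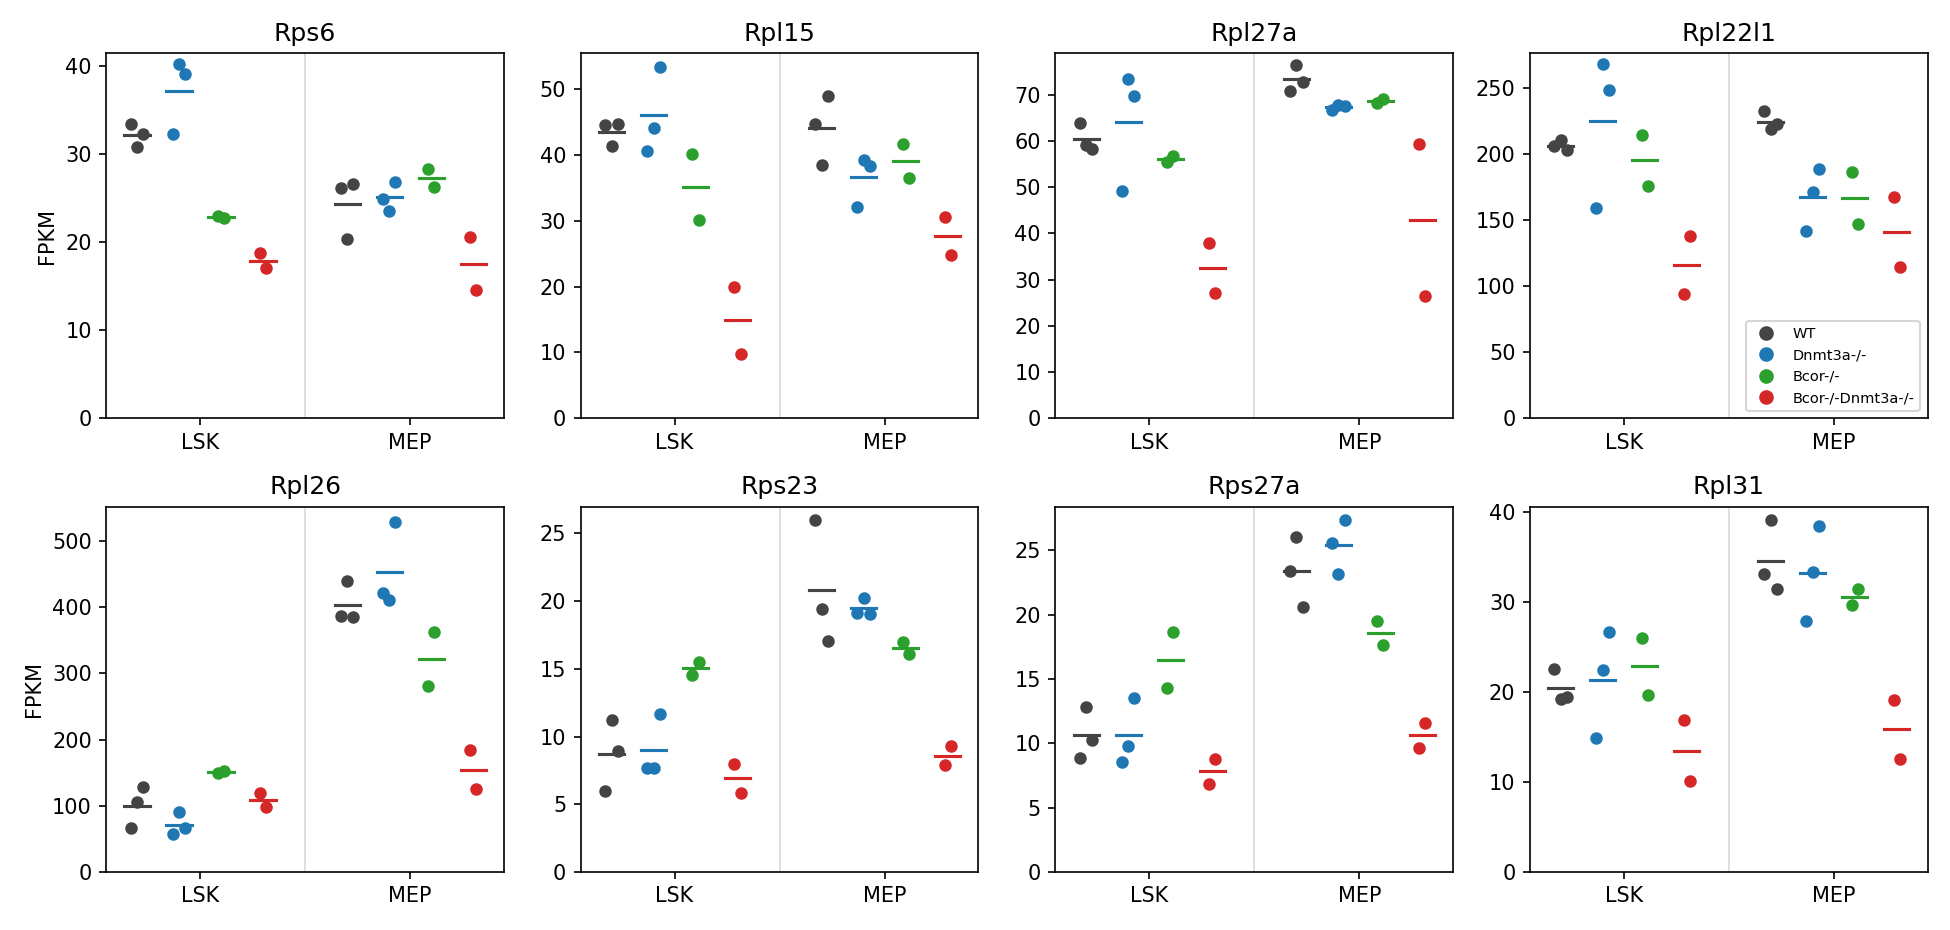
FPKM of 8 members in each library of LSK and MEP, by genotype, with points for libraries and bars for the genotype mean on axes that start at 0. The top row holds genes called lower in LSK, such as Rps6 and Rpl15, and the bottom row the genes with large decreases in MEP, where Rpl26 falls from a WT mean of 404 FPKM to 184 and 125.

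The change in the double mutant was then compared between the cell types with the LSK minus MEP difference of each mouse, tested over 10773 genes. The tables are separate, so the difference takes their scaling as given. The double mutant change was higher in LSK than in MEP for 68 of 79 members, with a median difference of 0.48 on the log2 scale, compared with -0.03 over all tested genes. The median difference was 0.71 without Bcor-/-Dnmt3a-/- replicate 1 and 0.21, with 31 of 79 below 0, without replicate 2. At an adjusted p under 0.05, 8 members were higher (10.1%), close to the 8.98% of all genes, and 2 were lower, compared with 11.5%. The largest difference was that of Rpl26 (difference 1.57 ± 0.31 (SE), adjusted p = 0.0112), which had 66.4, 105 and 129 FPKM in WT LSK against 120.0 and 98.7 in double mutant LSK, so that its decrease was seen in MEP and not in LSK. Rpl8, Rpl30, Rpl18, Rpl19, Rplp0, Rpl29 and Rpl37a followed, with differences of 0.92 to 0.67. The 2 in the opposite direction were Rpl15 (difference -0.91 ± 0.20 (SE), adjusted p = 0.017), which fell more in LSK, and Rpl5 (difference -0.87 ± 0.20 (SE), adjusted p = 0.0176). With 1 variance per genotype no member passed this test. Without WT replicate 1 only Rpl26 passed, beside 3.43% of all genes higher and 5.17% lower, and without WT replicate 2 Rpl26 and Rpl30 did (2 in all), beside 3.33% and 4.95%. Without Bcor-/-Dnmt3a-/- replicate 1, where 1 library stands for the double mutant, 39 members were higher and 2 lower, with 16.7% of all genes higher and 18.8% lower. Without replicate 2 of the double mutant 7 were higher and 6 lower, beside 15.3% and 19% of all genes.

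**Figure D5:**
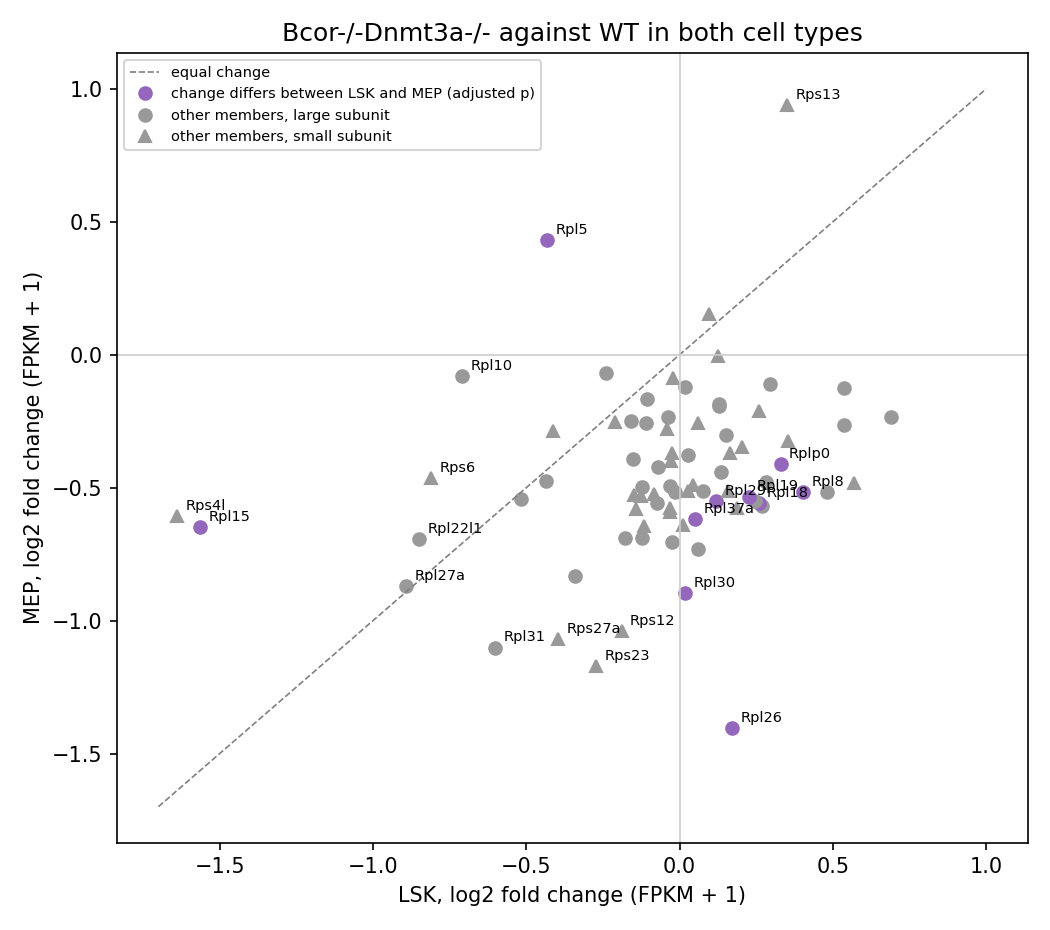
Log2 fold change of FPKM + 1 in Bcor-/-Dnmt3a-/- against WT in LSK (horizontal) and MEP (vertical) for the 79 members, with circles for the large and triangles for the small subunit, purple for the 10 members whose change differed between the cell types and a dashed line where the changes are equal. Most points lie below the line, Rpl26 farthest, and Rpl15 and Rpl5 lie above it.

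Loss of Bcor alone left the group near WT. In Bcor-/- LSK 4 members were called higher (5.06%), compared with 7.2% of all genes, and none lower, compared with 6.03%. The median log2 fold change was 0.06 (all genes -0.01), but it turned to -0.12 with quantile normalization and to -0.09 with libraries scaled to the same sum, where the median of all genes was -0.15. Rps27l, a paralog known as a p53 target, had 253 and 260.1 FPKM in Bcor-/- and 118, 151 and 155 in WT (log2 fold change 0.87 ± 0.22 (SE), adjusted p = 0.0477). Rps23 (14.5 and 15.5 FPKM in Bcor-/-, 5.98, 11.2 and 8.91 in WT), Rpl26 (150.1 and 153 against 66.4, 105 and 129) and Rps27a (14.3 and 18.7 against 8.87, 12.8 and 10.2) were called at adjusted p-values of 0.112, 0.181 and 0.142, which are above 0.05. Rps6 was lower, at 23.0 and 22.8 FPKM compared with 33.4, 30.9 and 32.3 in WT (log2 fold change -0.47 ± 0.12 (SE), adjusted p = 0.0489), a change under the fold threshold. No member passed the adjusted p in this comparison with median centring, the replicate block, no trend, no filter or without any 1 of the WT or Bcor-/- libraries. Without Bcor-/- replicate 2, 1 member was called higher, beside 4.75% of all genes higher and 2.65% lower. The count was 2 without Bcor-/- replicate 1 (7.97% of all genes higher and 6.88% lower) and 2 without WT replicate 1 (5.92% and 4.64%), again all higher. Markers moved with this comparison too. The summed FPKM of the erythroid markers was 1051 and 1578 in Bcor-/- LSK and 552 to 728 in WT. That of the stem and progenitor markers was 693 and 1023 compared with 1373 to 1597. Granulocyte markers summed to 17730 and 25350 compared with 3543 to 13550. T and NK cell markers summed to 469.7 to 629.5 compared with 234.7 to 262, though 7 of 8 had a log2 fold change below 0. Of these 1 was called higher and 1 lower. Macrophage markers had a median log2 fold change of 1.05 with 1 of 7 below 0, and none was called. Their sum was 279.9 to 331 compared with 62.8 to 334. The part of all these markers in the result was not tested.

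In Bcor-/- MEP no member was called in limma's test, compared with 1.23% of all genes higher and 1.53% lower. At an unadjusted p under 0.05 with no fold threshold 1 member was lower, and at an adjusted p under 0.05 none was. The median log2 fold change was -0.12 and 65 of 79 were below 0, from -0.48 to 0.51. The median was -0.04 without WT replicate 2, with 49 of 79 below 0, and -0.21 without WT replicate 3. Of 10 granulocyte markers 3 were called higher and 1 lower, with a summed FPKM of 482 to 839 compared with 320.1 to 787 in WT. Of 9 tested megakaryocyte markers 1 was called higher. The 8 B cell markers had a median log2 fold change of -0.84 with 8 of 8 below 0, and none was called. The part of these markers in the result was not tested. The difference between LSK and MEP in the Bcor-/- change passed an adjusted p under 0.05 for no member and an unadjusted p under 0.05 for 6, and with 1 variance per genotype 3 were higher and 1 lower at the adjusted p, compared with 7.03% of all genes higher and 4.76% lower.

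Loss of Dnmt3a alone gave few calls, none of which held after adjustment. In Dnmt3a-/- LSK 1 member was called lower (1.27%), compared with 0.234% of all genes, and none higher, compared with 0.209%. It was Rps12, at 1.59, 0.533 and 0.478 FPKM compared with 1.65, 1.86 and 2.82 in WT (log2 fold change -0.77 ± 0.27 (SE), adjusted p = 1). The median log2 fold change was -0.09, with 54 of 79 below 0, and it was -0.05 without Dnmt3a-/- replicate 1 and -0.14 without Dnmt3a-/- replicate 3. Markers of other cells moved here too: the granulocyte markers had a median log2 fold change of -1.14 with 10 of 10 below 0 and 3 called lower, and their summed FPKM was 2622 to 3939 in Dnmt3a-/- LSK and 3543 to 13550 in WT. The macrophage markers had a median of -0.97 with 7 of 7 below 0, and a sum of 43.8 to 117 compared with 62.8 to 334. Their part in the result was not tested. In Dnmt3a-/- MEP 3 members were called higher (3.8%), compared with 0.201% of all genes, and none lower, compared with 0.21%. They were Rps4l with 14.4, 8.08 and 8.26 FPKM compared with 6.71, 4.84 and 3.25 in WT, Rpl34 with 46.9, 56.0 and 44.2 compared with 25.4, 38.1 and 26.2, and Rps13 with 2.49, 1.85 and 2.28 compared with 1.01, 1.40 and 0.723. The 3 genes had an adjusted p of 1, as Rps12 had in LSK, and no member passed an adjusted p under 0.05 in either cell type.

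Other genes of the translation machinery were described beside the members in Bcor-/-Dnmt3a-/- MEP. In this comparison 12.4% of all tested genes were called lower and 18.5% higher. Of 83 genes of ribosome assembly, 41 were called lower (49.4%) and none higher, with a median log2 fold change of -0.57. Nop10, a protein of the particles that modify ribosomal RNA, had 263.7, 303 and 246 FPKM in WT against 128 and 106 in the double mutant (log2 fold change -1.20 ± 0.13 (SE), adjusted p = 0.00067), and Nat10, which acetylates ribosomal RNA, 53.6, 52.6 and 48.3 against 24.4 and 24.6 (log2 fold change -1.04 ± 0.09 (SE), adjusted p = 0.000376). Of 13 tested genes of RNA polymerase I, which transcribes the ribosomal RNA, 6 were called lower (46.2%). Polr1b, its second largest subunit, had 45.1, 44.3 and 41.9 FPKM in WT against 20.7 and 21.8 in the double mutant (log2 fold change -1.01 ± 0.09 (SE), adjusted p = 0.000376). Of 76 mitochondrial ribosomal protein genes, 31 were called lower (40.8%) and none higher, with a median of -0.53. Without 1 WT library 35 to 46 assembly genes, 5 to 6 polymerase genes and 20 to 39 mitochondrial genes were called lower. Of all genes 10.8 to 13.4% were lower in these fits. With 1 variance per genotype the counts were 41, 6 and 16, beside 7.46% of all genes. Without Bcor-/-Dnmt3a-/- replicate 1 the 3 medians, in this order, were -0.60, -0.55 and -0.66. Without replicate 2 they were -0.56, -0.57 and -0.41. Under the 4 other scalings the 3 medians were between -0.64 and -0.81. Of 9 small nucleolar RNA host genes 4 were lower, Gas5 among them with 166, 159 and 157 FPKM in WT against 87.8 and 89.5 in the double mutant.

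Translation factors and regulators were described in the same way, beside the same 12.4% of all tested genes called lower and 18.5% called higher. Of 54 tested genes whose symbols begin with Eif and a number, most of them initiation factors, 9 were called lower (16.7%) and 4 higher (7.41%) in Bcor-/-Dnmt3a-/- MEP, with a median log2 fold change of -0.24. Without WT replicate 2 only 5 of the 54 were lower, where 10.8% of all genes were, and 2 were higher, where 15% were. The median of the 54 was -0.25 without Bcor-/-Dnmt3a-/- replicate 1 and -0.32 without replicate 2. Eif4ebp1, the inhibitor of the cap-binding protein that mTOR switches off, had 111, 156 and 99.3 FPKM in WT against 55.0 and 74.9 in the double mutant (log2 fold change -0.89 ± 0.21 (SE), adjusted p = 0.0131). Of 14 other genes known for a TOP tract 2 were called lower (14.3%, near the share of all genes) and 1 higher (7.14%). Eef1g was at 263.9, 306 and 244 FPKM in WT against 157 and 141 in the double mutant, and Tpt1 at 93.3, 92.2 and 118 against 122 and 234.6. Among 7 tested ribosomal genes outside the symbol rule 2 were called lower (28.6%). They were Gnb2l1 (log2 fold change -0.63 ± 0.16 (SE), adjusted p = 0.0176) and Rpl36al (log2 fold change -0.62 ± 0.14 (SE), adjusted p = 0.0115). Of 3 factors that rescue stalled ribosomes, Pelo, Hbs1l and Abce1, 0 were called lower. Of 7 elongation factor genes 1 was called lower (14.3%), which was again Eef1g.

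In LSK the same lists gave other counts. Bcor-/-Dnmt3a-/- LSK had 6 of 83 assembly genes, 1 of 13 polymerase I genes and 1 of 76 mitochondrial ribosomal protein genes called lower and none higher, or 7.23%, 7.69% and 1.32% beside 13.3% of all genes, with medians of -0.11, -0.11 and 0.04. In Bcor-/- LSK 17 of the 76 mitochondrial ribosomal protein genes were called higher (22.4%, beside 7.2% of all genes) and none lower, with a median of 0.41 and 75 of the 76 above 0. Mrpl51 had 52.1 and 63.3 FPKM in Bcor-/- and 25.7, 33.3 and 24.5 in WT (log2 fold change 1.03 ± 0.17 (SE), adjusted p = 0.0175). Under the 4 other scalings, 3 of which turned the median of the cytosolic genes, the mitochondrial median stayed between 0.29 and 0.42. In those fits 8 to 17 mitochondrial genes were called higher, beside 4.84 to 7.23% of all genes. The mitochondrial median was 0.36 without Bcor-/- replicate 2 and 0.49 without Bcor-/- replicate 1.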

How the data were processed

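The authors deposited FPKM (fragments scaled to transcript length and library size) per gene for LSK and MEP. The submitters' processing notes name STAR 2.5.1b, SAMtools 1.9, Cufflinks 2.2.1 and mm9, without their roles. The annotation, the treatment of multiply mapped reads and the scaling between libraries are not given in the sources used here. An FPKM of 0 can be a failed estimate.

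Members and gene lists were chosen with earlier results of these data known. Genes averaging 1 FPKM or more across the 10 libraries of a cell type were fitted as log2(FPKM + 1), with all 4 genotypes of a cell type in 1 model, by limma 3.58.1 in R 4.3.3 with a mean-variance trend. Fold changes are on this scale, which understates low genes, and tests are two-sided. A gene was called where the fold change exceeded 1.5 and the unadjusted p was under 0.05, and Benjamini-Hochberg adjusted p-values cover all tested genes. The change in LSK and MEP was compared by the same model on each mouse's difference. Libraries were taken as replicates by the labels. Named genes are the 6 largest called changes per direction and cell type in both Bcor comparisons, the called genes of the Dnmt3a comparisons, the 6 largest differences between cell types, the members of the stalk, 5S, anemia, paralog and X-linked lists, and the extremes of level, with at most 2 per direction of any other list. Rps19 and the members passing only the adjusted p were added after their values were seen. Some genes are not reported here. The fit was tested on simulated data. Alternatives were 4 other scalings, a minimum of 5 FPKM or none, a pseudocount of 0.1, fewer genotypes, the replicate block, no trend, 1 variance per genotype, other thresholds and leaving out each library. The restriction to members with under 10% of shared 50-mers, and the alternatives for other lists, were chosen after seeing the data. Shared sequence was counted over GENCODE M21 transcripts, and starts are those of RefSeq GRCm38.p6, from which no coordinate was joined with the mm9 tables. Python 3.11.15 with matplotlib 3.10.9 drew the figures.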

Additional observations from a re-analysis of the deposited data

Results flagged for a closer look

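For 10 members the change in Bcor-/-Dnmt3a-/- cells differed between LSK and MEP in the test of the difference itself, given here as the log2 fold change in LSK minus that in MEP. The difference was 1.57 for Rpl26, 0.92 for Rpl8, 0.92 for Rpl30, 0.82 for Rpl18, 0.76 for Rpl19, 0.74 for Rplp0, 0.67 for Rpl29 and 0.67 for Rpl37a. It was -0.87 for Rpl5 and -0.91 for Rpl15. No member of the small subunit was among the 10. The 8 higher members are 10.1% and the 2 lower 2.53% of all members, beside 8.98% and 11.5% of all tested genes, so the share higher is close to that of all genes and the share lower is below it. Without replicate 2 of the double mutant 7 members were higher and 6 lower. With 1 variance per genotype none of the 10 passed, nor did any other gene.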

How the results depend on the processing

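The count of members called in Bcor-/-Dnmt3a-/- MEP (18) became 42 with quantile normalization, 45 with median centring, 50 scaled to TPM, 44 scaled to TPM without globin genes, 9 with 1 variance per genotype, 5 at a fold change above 2, 38 at the adjusted p without a fold threshold, 0 among members with little shared sequence (3 of these 9 lower at the adjusted p, beside 17% of all genes), and 13 to 33 with 1 library left out. That in LSK (6) became 10 scaled to TPM, 2 at a fold change above 2, 0 among members with little shared sequence (2 of these 9 lower at the adjusted p, beside 14.2% of all genes), and 5 to 14 with 1 library left out. In Bcor-/- LSK (4) it became 1 at the adjusted p, 0 at a fold change above 2, 2 at the adjusted p without a fold threshold, and 1 to 5 with 1 library left out, and in Bcor-/- MEP (0) 0 to 1. In Dnmt3a-/- LSK (1) it was 2 with a pseudocount of 0.1, quantile normalization, both TPM scalings, only the compared genotypes, no trend or 1 variance per genotype, 0 with a minimum of 5 FPKM, the adjusted p or a fold change above 2, and 1 to 3 with 1 library left out. In Dnmt3a-/- MEP (3) it was 0 at the adjusted p or a fold change above 2, and 3 to 4 with 1 library left out. The LSK minus MEP count for the double mutant (10) became 21 with median centring, 0 with 1 variance per genotype and 1 to 41 with 1 mouse left out, and that for Bcor-/- (0) 4 with 1 variance per genotype and 0 to 3.

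The median log2 ratio of the members in LSK was, in Bcor-/-Dnmt3a-/- replicate 1 (-0.19), -0.30 with quantile normalization, -0.28 with median centring, -0.29 and -0.27 with the TPM scalings, -0.22 for members of at least 50 FPKM, -0.0753 for the large and -0.23 for the small subunit. In replicate 2 (0.20) these values were -0.17, 0.10, -0.0801, -0.0164, 0.22, 0.14 and 0.22. In MEP, replicate 1 (-0.37) had -0.57 with median centring, and replicate 2 (-0.54) -0.83 with quantile normalization and -1.02 and -0.82 with the TPM scalings. The cause of these shifts was not tested.

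The replicate numbers do not mark a pairing in the labels, and same-numbered WT and Dnmt3a-/- libraries deviated together with correlations from -0.193 to 0.336. With the replicate block 24 members were called lower and 1 higher in Bcor-/-Dnmt3a-/- MEP, beside 12.6% and 18.4% of all genes. In Bcor-/-Dnmt3a-/- LSK 6 were lower and 1 higher, beside 12.6% and 14.4%. In Bcor-/- LSK 4 were higher (7.38% of all genes), and in Bcor-/- MEP 0 were called (1.27% higher and 1.61% lower). In Dnmt3a-/- LSK 1 was lower (0.243%), and in Dnmt3a-/- MEP 3 were higher (0.22%). Of 32 single calls, 13 held under every alternative fitted, none changed direction, and 61 of 667 refits lost the call. The number of fragments behind a value is unknown, so low members such as Rps13 and Rps12 carry an unknown counting error.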

Other observations

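The small subunit gene Rps3a1 set replicate 3 of WT and of Dnmt3a-/- apart in both cell types. It had 698, 722 and 361 FPKM in WT LSK, Dnmt3a-/- LSK had 609, 764 and 357, WT MEP 693, 698 and 327 and Dnmt3a-/- MEP 560.3, 620.2 and 321. Bcor-/- LSK had 744 and 619 FPKM, Bcor-/-Dnmt3a-/- LSK 549.5 and 668, Bcor-/- MEP 585 and 579 and Bcor-/-Dnmt3a-/- MEP 709 and 511. A search for genes in which both of these libraries were below 0.75 times every other library, or every other library below 0.75 times these, found 10 of 11952 tested genes in LSK and 2 of 10933 in MEP, and Rps3a1 was the only 1 shared by both. Rps3a1 was chosen after its values were seen, and 71.01% of its 50-mers occur in annotated pseudogenes. The cause was not tested.

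Rpl3l, the muscle paralog of Rpl3 and below the minimum level here, was highest in Bcor-/-Dnmt3a-/- replicate 1, with 4.79 FPKM in LSK and 5.76 in MEP. Replicate 2 had 0.373 FPKM in LSK and 0 in MEP, so the high values were those of replicate 1 only.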
